A study of Mus musculus with 15 samples.

Results

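Granulocyte-macrophage progenitors (GMPs) of control mice were compared with the stage before them, the pre-granulocyte-macrophage progenitors (preGMs), on 6 of the 15 arrays of a series on progenitors carrying mutant Cebpa. The 6 arrays were taken by their titles: 3 of preGMs labelled +/+ and 3 of GMPs labelled fl/+. The comparison itself was chosen with earlier results of these data known. The other arrays were of preGMs and GMPs labelled fl/p30 and of GMPs labelled fl/BRM2. All 15 samples came from the bone marrow of female C57BL/6 mice, 3 weeks after a conditional gene knockout, and 20 ng of total RNA from each was amplified for the array. The preGM genotype is given as cebpa +/+ and the GMP genotype as cebpa fl/+, so the GMPs carried 1 floxed Cebpa allele that the preGMs did not. Both carried the Mx1Cre transgene (written Mx1Ce for the preGMs), in which the interferon-inducible Mx1 promoter drives Cre recombinase, so its activity is not limited to blood progenitors. Neither the inducing agent nor the mice's age is stated in the labels. After the knockout the floxed allele of the GMPs may have been deleted in some or all cells, which was not measured here. Stage and genotype changed together between these groups, and the parts they played in any difference cannot be told apart. The titles carry a different number for each of the 6 arrays. If these numbers stand for animals, no control animal was the source of both a preGM and a GMP sample.

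Both populations were sorted as Lin-, Sca1-, cKit+, CD150- and CD41- cells. FcgRII separated them, with preGMs negative and GMPs positive, and preGMs were also selected as Endoglin-. PreGMs and GMPs are successive steps in the pathway from multipotent progenitors to granulocytes and monocytes. Across it, progenitors lose the genes shared with stem and lymphoid cells and begin to make the enzymes of the primary (azurophil) granules. C/EBPα, encoded by Cebpa, is a transcription factor that this transition requires, and C/EBPε acts later, in the making of secondary granules. In bulk samples such as these, fewer cells of a type and less RNA per cell cannot be told apart.

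Levels are log2 values as deposited, and a difference is always the GMP mean minus the preGM mean on that scale, ± its standard error (3 arrays in each group). Each was tested with limma over all 19937 genes, in a fit of the series' 5 groups that share 1 estimate of the spread. The mutant groups in that fit were preGM fl/p30, GMP fl/p30 and GMP fl/BRM2. A gene is said to have risen, fallen or been called where its Benjamini-Hochberg adjusted p was under 0.05. The arrays are named preGM 1 to 3 and GMP 1 to 3 after the replicate numbers. A named gene's call stood in each of the 6 fits that left out 1 of these arrays unless the arrays whose omission ended it are given. Array medians lay between 6.03 and 6.23 over all 6 arrays, and a level near or below them is close to that of genes the cells do not use. A fold is therefore given only where both group means were above 6.23.

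Between the 2 groups, which differ in stage and genotype, 2036 genes were called, 10.2% of those tested. In GMPs 836 were higher (4.19%) and 1200 were lower (6.02%), and 6312 had an unadjusted p under 0.05. After subtraction of each array's median the calls were 458 higher and 1542 lower. A fit of the 6 arrays alone, without the other groups in its spread, gave 746 calls, 243 higher and 503 lower. Falls were the larger changes, with a median size of 0.80 against 0.53 for rises, and 450 genes (2.26%) were called with a difference of at least 1, 342 falls and 108 rises. For 34.0% of all genes, every array of one group lay above every array of the other. The preGM arrays were closely alike (pairwise correlations 0.993 to 0.994), and the GMP arrays less so (0.968 to 0.981). Of the GMP arrays, GMP 2 was the least like the preGM arrays (correlations of 0.957) and GMP 1 the most (0.979 to 0.982). Leaving out GMP 1 raised the number of calls from 2036 to 4686. Leaving out preGM 1, preGM 2, preGM 3, GMP 2 or GMP 3 lowered it to 636, 794, 830, 798 or 1289.

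**Figure D1:**
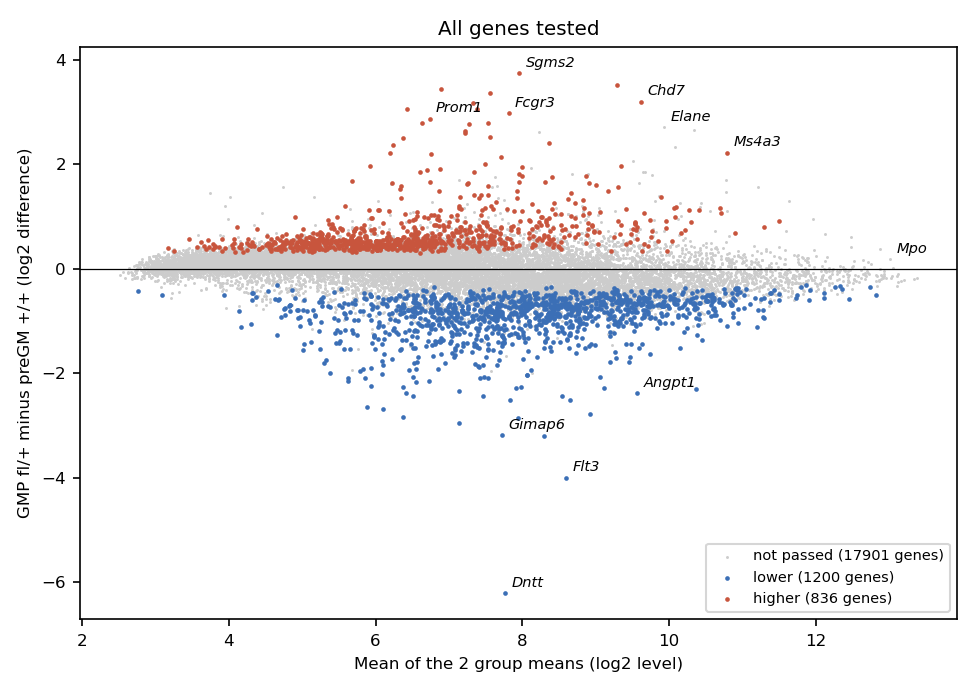
Each point is 1 of 19937 genes, placed by the mean of its 2 group means (log2, horizontal axis) and by GMP fl/+ minus preGM +/+ (log2, vertical axis). The 836 genes that rose are red, the 1200 that fell are blue and the rest grey. The fall of Dntt by 6.20 was the largest difference in either direction, and many small rises lie at levels under 6.

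Many of the rises were at low levels. For 279 of the 836 genes that rose, the GMP mean, the higher of the group means, was under 6.03, the lowest array median, against 64 of the 1200 that fell, where the preGM mean was the higher. Olfactory receptors, which blood progenitors are not known to use, had 32 of 1015 genes higher (3.15%, under the 4.19% of all genes) and 1 lower, with a median difference of 0.13 beside 0.08 over all genes. Without GMP 1, 98 rose, when 2001 of all 19937 genes did, and 5 to 11 rose without any other array, when 0.973% to 2.22% of all genes did. With array medians subtracted 15 rose.

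Both Fc receptor genes tied to the sort gate rose. Fcgr3 encodes a low-affinity receptor for IgG, which antibodies to FcgRII used on mouse progenitors usually also bind. It was at 6.49, 6.35 and 6.12 in preGMs and at 9.70, 9.19 and 9.01 in GMPs. Every GMP array was above every preGM array, a 7.88-fold rise (2.98 ± 0.20, adjusted p = 4.59e-06). Fcgr2b, the inhibitory IgG receptor, rose 2.79-fold, from 7.33, 6.77 and 7.45 to 8.38, 9.0 and 8.61 (1.48 ± 0.30, adjusted p = 0.00992). Endoglin was selected against in preGMs only, yet Eng RNA was higher in preGMs, at 7.51, 7.32 and 7.51 against 6.90, 6.59 and 6.65 in GMPs (difference -0.74 ± 0.14, adjusted p = 0.00639). Kit, required in both gates, fell by 0.59 ± 0.16 (10.17 to 10.52 against 9.53 to 9.91, adjusted p = 0.0329; lost without preGM 1, preGM 3 or GMP 2). Slamf1, which encodes CD150, was under the array medians on all 6 arrays, between 4.03 and 4.73, and Itga2b, which encodes CD41, was at 6.43 to 7.18 with no call in either direction.

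The largest rise was of Sgms2, sphingomyelin synthase 2. Its levels were 5.91, 6.62 and 5.73 in preGMs and 10.40, 9.25 and 9.85 in GMPs, a rise of 3.74 ± 0.75 (adjusted p = 0.00895). Olr1, the lectin-like receptor for oxidised LDL, rose from 4.85, 5.35 and 5.31 to 8.87, 8.39 and 8.60 (3.45 ± 0.64, adjusted p = 0.00589). Gda, guanine deaminase, rose from 5.79 to 5.94 across the preGM arrays to 8.61 to 9.72 across the GMP arrays (3.37 ± 0.68). For these 3 genes preGM arrays were near or below the array medians and GMP arrays well above them, without overlap.

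Chd7, a chromatin remodeller, was already expressed in preGMs at 7.40, 8.43 and 8.24 and reached 11.04, 11.22 and 11.38 in GMPs, a 9.16-fold rise (3.20 ± 0.49, adjusted p = 0.00206). Prom1, which encodes the membrane protein CD133, was at 5.26 to 5.38 in preGMs and 8.0 to 8.35 in GMPs (2.87 ± 0.45, adjusted p = 0.00238). Fcnb, the secreted lectin ficolin B of neutrophil granules, rose from 5.39, 6.19 and 6.00 to 9.52, 8.85 and 8.36 (3.05 ± 0.43, adjusted p = 0.00128). Far2, a fatty acyl-CoA reductase, rose by 2.76 ± 0.46, and Ly6a2 by 2.64 ± 0.54. None of these overlapped between the groups.

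The calls of the remaining genes among the 15 largest rises did not stand in every fit that left out an array. Prg2, eosinophil major basic protein, had 1 high preGM array (6.25, 8.95 and 7.40, against 11.02, 10.83 and 11.30 in GMPs) and rose by 3.52 ± 0.81 (adjusted p = 0.0172; lost without preGM 1 or preGM 3). The C-type lectin receptors Clec5a (3.16 ± 0.79), Clec4a2 (3.05 ± 0.74) and Clec4b2 (2.78 ± 0.79) were highest in GMP 1. Clec4a2 lost its call without any of the 3 preGM arrays, Clec5a without those or GMP 2, and Clec4b2 without any one of the 6 arrays. B4galt6, a lactosylceramide synthase, rose by 2.78 ± 0.71 and lost its call without any array but GMP 1. Mgam, maltase-glucoamylase, rose by 2.59 ± 0.59 (lost without preGM 1 or preGM 3).

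The largest falls were of Dntt and Flt3. Dntt encodes terminal deoxynucleotidyl transferase, which adds bases at the joints of rearranging antigen receptor genes. It was at 10.90, 10.46 and 11.25 in preGMs and at 4.83, 4.64 and 4.52 in GMPs, a fall of 6.20 ± 0.27 to below the array medians (adjusted p = 2.89e-08). Flt3, the receptor tyrosine kinase of early lymphoid and myeloid progenitors, was at 10.56, 10.41 and 10.81 in preGMs and at 6.61, 6.54 and 6.65 in GMPs, a 15.9-fold fall (adjusted p = 4.59e-06). Both were even within each group, and the gap between the groups was many times the spread.

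Ctla2a, an inhibitor of cathepsin L-type proteases, fell 9.17-fold (from 9.80, 10.02 and 9.87 to 6.67, 7.31 and 6.11). Angpt1, the ligand of the Tek receptor, fell 5.19-fold (from 10.93, 10.68 and 10.63 to 8.0, 8.29 and 8.83, adjusted p = 0.000183). Myct1 fell by 2.95 ± 0.32, and Gcnt2, the I-branching glycosyltransferase, by 2.51 ± 0.20. The tetraspanin genes Tspan13 and Tspan6 fell too, with differences of -2.86 ± 0.33 and -2.67 ± 0.21. Cmah, the enzyme that converts one sialic acid form into another, fell by 2.43 ± 0.24. GMP arrays lay below preGM arrays for each of these genes, without overlap.

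In other large falls GMP 2 was the lowest array and GMP 1 the highest. Slc39a10, a zinc transporter, was at 9.82 to 10.07 in preGMs and at 8.66, 5.76 and 7.78 in GMPs (-2.51 ± 0.49, adjusted p = 0.00755). In a fit of the 6 arrays alone its adjusted p was 0.0767. Prdx4, a peroxiredoxin of the endoplasmic reticulum, was at 8.54 to 8.82 in preGMs and at 7.11, 5.47 and 6.15 in GMPs (-2.44 ± 0.35, adjusted p = 0.00128). Slc44a1, a choline transporter, fell by 2.64 ± 0.58 at its most highly expressed probe set (lost without preGM 1, preGM 2 or GMP 2), while its other probe set differed by -0.25.

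**Figure D2:**
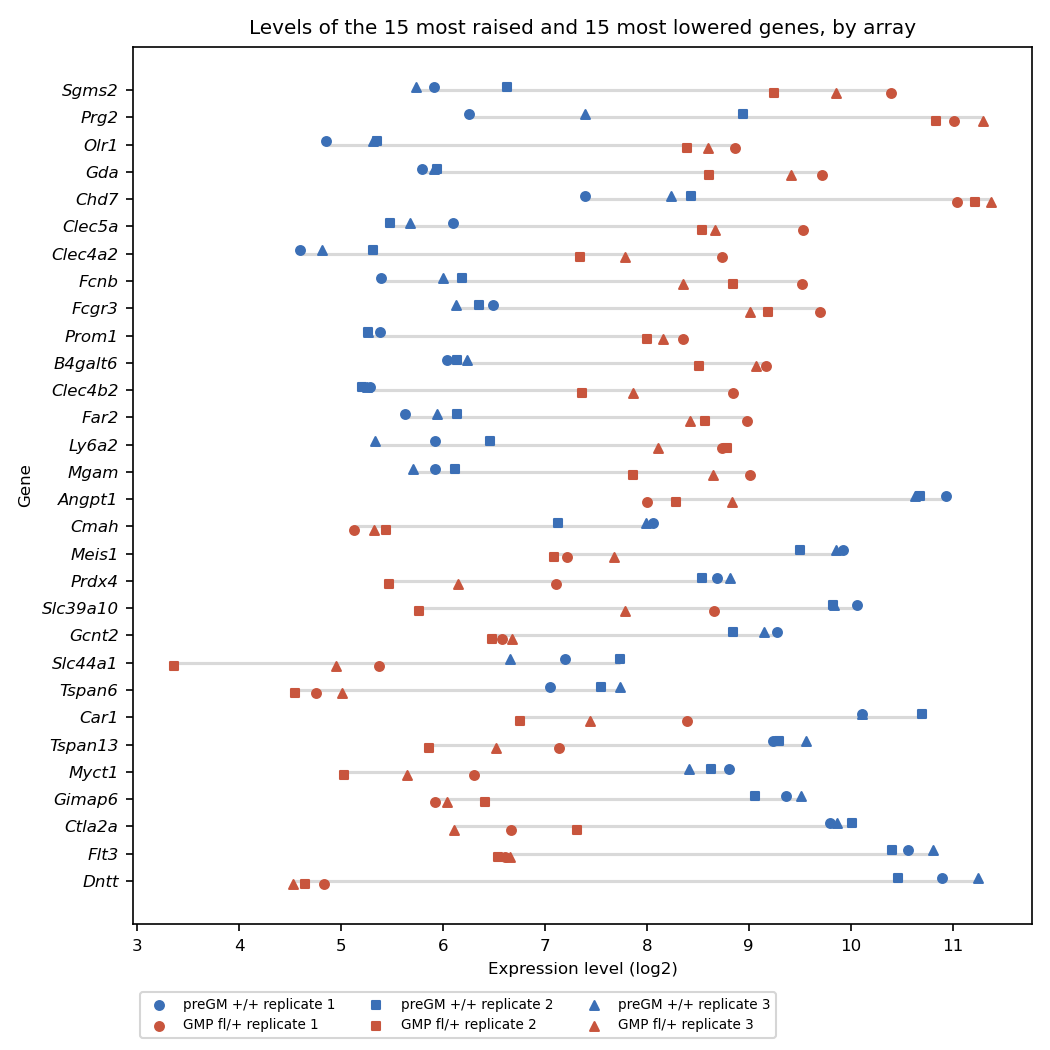
Log2 level (horizontal axis) of the 15 genes with the largest rises and the 15 with the largest falls among called genes whose groups did not overlap, 1 row per gene. Blue symbols are the 3 preGM +/+ arrays and red symbols the 3 GMP fl/+ arrays, with the replicate number shown by shape; Dntt and Flt3 are tight in both groups, while Prg2 and Slc39a10 are spread within 1 group.

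Gene lists were read against the 4.19% of all genes that rose and the 6.02% that fell. Among 31 stem and multipotent progenitor genes 15 fell and 1 rose, with a median difference of -0.59; 9 fell without preGM 1, 10 without preGM 2 or GMP 2, and 12 to 16 without any other array. Besides Flt3 and Angpt1, Meis1, a homeobox cofactor of HoxA proteins, fell 5.40-fold (9.92, 9.50 and 9.86 against 7.22, 7.09 and 7.68, adjusted p = 0.00224). Hlf, a transcription factor of stem cells, fell 3.22-fold, from 9.30, 8.98 and 8.83 to 7.33 to 7.36 (adjusted p = 0.000123). Satb1 fell by 1.51, Tek by 1.17, Cd48 by 1.13 and Cd34 by 1.03. The riser was Prom1, described above.

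Among 24 genes of the Hoxa cluster and other leukaemia-linked genes 7 fell and none rose (median -0.33). Without preGM 1, preGM 2 or GMP 2 the falls were 5, without preGM 3 they were 6, and without GMP 1 or GMP 3 they were 8. With array medians subtracted 10 fell, when falls over all genes went from 1200 to 1542. After quantile normalization 11 fell, when falls over all genes were 869. Flt3, Meis1, Hoxa9, Sox4 and Erg (lost without any preGM array or GMP 2) stand in this list and in the stem cell list. Hoxa5 fell by 1.22 ± 0.18 and Hoxa9 2.20-fold (8.24, 7.86 and 7.70 against 6.69, 6.74 and 6.96, adjusted p = 0.00202). Hoxa10 was at 5.54 to 5.87 in preGMs and 5.22 to 5.42 in GMPs, below the array medians in both.

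Among 22 B lymphoid genes 4 fell and 1 rose (median -0.55). The fallers were Dntt, Il7r, Blnk and Rag2. Il7r, the interleukin-7 receptor, was at 6.72, 6.54 and 7.93 in preGMs and at 4.64, 4.94 and 4.88 in GMPs (-2.24 ± 0.27, adjusted p = 0.000447), and Blnk, an adaptor of B cell receptor signalling, at 6.34, 6.22 and 8.14 against 4.71 to 4.95 (-2.10 ± 0.38, adjusted p = 0.00526). Rag2, of the recombinase, fell by 1.17 ± 0.32 (lost without preGM 2, preGM 3 or GMP 3). Ighm, the immunoglobulin heavy chain, rose by 0.49 (5.86 to 6.11 against 6.25 to 6.81; lost without any array but GMP 1). PreGM 3 was the highest preGM array for all 4 fallers, and the list's mean, relative to each gene's mean over the 6 arrays, was 1.26 in preGM 3 against 0.04 and 0.06 in the other preGM arrays and -0.52 to -0.34 in GMPs. Ebf1, the B lineage transcription factor, was at 5.37, 5.69 and 8.88 in preGMs, Rag1 at 6.63, 6.08 and 8.92, Igll1 at 6.93, 6.96 and 8.98 and Pax5 at 6.02, 5.98 and 7.58. These genes were not called. Without preGM 3 the fallers numbered 3, Dntt, Il7r and Blnk among them. The part of preGM 3 in the size of the Il7r and Blnk differences was not tested beyond this.

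Among 25 T and NK cell genes 2 rose and 3 fell (median -0.07). Gzmb, granzyme B, rose from 5.48, 4.57 and 5.21 to 7.12, 7.41 and 7.35 (2.21 ± 0.27, adjusted p = 0.000501). Nkg7, a granule membrane protein that is also in the primary granule list, was the other. Ccl5, Cd28 and Klrd1 fell by 1.12, 0.85 and 0.71, each losing its call without preGM 1 or preGM 2 (Ccl5 also without GMP 2, Klrd1 also without preGM 3, GMP 1 or GMP 3). Cd3e, which defines T cells, was at 6.01 to 6.45 on all 6 arrays. Among 8 Gimap GTPase genes, a family of lymphoid cells and early progenitors, 3 fell and none rose (median -0.87). Gimap6 fell by 3.19 ± 0.34, from 9.37, 9.07 and 9.52 to 5.92, 6.42 and 6.04 (adjusted p = 0.000178). Gimap9 (-1.12) and Gimap7 (-0.98) lost their calls without preGM 1 or preGM 3, and Gimap7 also without GMP 2.

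**Figure D3:**
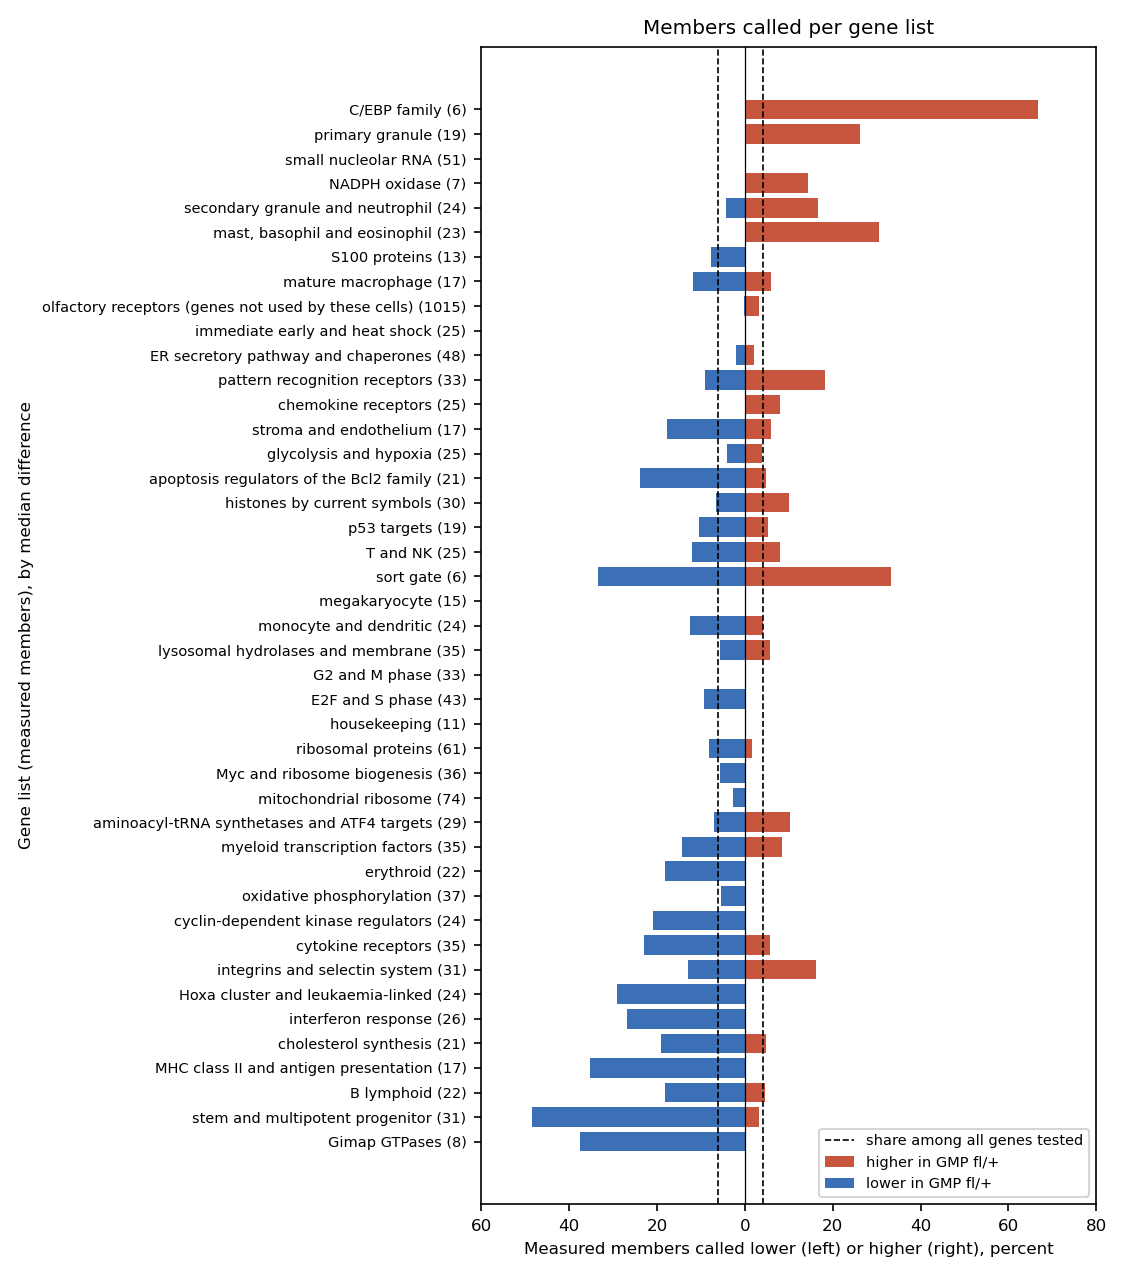
Share of the measured members of each gene list called lower (blue, to the left) or higher (red, to the right) in GMP fl/+, in percent, with the number of measured members in brackets and the lists ordered by median difference. Dashed lines mark the 6.02% and 4.19% of all genes tested; 15 of 31 stem and multipotent progenitor genes are on the left and 4 of 6 C/EBP genes on the right.

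The C/EBP family, 6 measured members, had 4 that rose and none that fell (median 0.81). Cebpa itself was at 8.58, 8.61 and 8.53 in preGMs and at 8.70, 8.10 and 8.34 in GMPs, overlapping (-0.20 ± 0.18, adjusted p = 0.461). The part of the GMPs' floxed Cebpa allele, which may have been deleted, in these values was not tested. Cebpg was also not called (-0.22 ± 0.17). Cebpe rose 3.52-fold, from 6.94, 7.31 and 6.88 to 9.50, 8.56 and 8.51 (adjusted p = 0.0301; lost without any preGM array or GMP 2). Cebpd rose 2.24-fold (6.43 to 6.71 against 7.48 to 7.96, adjusted p = 0.00678), Ddit3, the stress-induced member also called CHOP, 1.85-fold (adjusted p = 0.0038), and Cebpb by 0.73 ± 0.13 (adjusted p = 0.00531).

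Among 35 myeloid transcription factor genes 3 rose and 5 fell (median -0.24; 1 to 3 rose and 3 to 8 fell with 1 array left out, the 8 without GMP 1). Gfi1, a repressor needed for granulocyte development, rose 1.95-fold (6.37, 6.25 and 6.45 against 7.24, 7.31 and 7.40, adjusted p = 0.00384). Lyl1 and Per3 rose by 0.87 and 0.62 and lost their calls without any array but GMP 1. Mef2c, a factor of lymphoid and monocytic fate, fell 2.72-fold (10.16 to 10.24 against 8.56 to 8.88, adjusted p = 0.000361), Dach1 2.0-fold and Hhex 1.68-fold. Sox4 fell 1.83-fold (lost without preGM 1, preGM 2 or GMP 2) and Etv6 by 0.61 (lost without preGM 1, preGM 3 or GMP 2). Spi1, which encodes PU.1, was at 8.54 to 8.83 in preGMs and 8.42 to 9.39 in GMPs (0.11 ± 0.29, adjusted p = 0.808). Irf8 differed by -0.61 ± 0.30 and Runx1 by -0.67 ± 0.21, neither called (adjusted p = 0.17 and 0.0561).

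Of 19 primary granule genes 5 rose and none fell (median 0.66), and 12 did not overlap between the groups, where 34.0% of all genes did not. The number that rose was 2 without any 1 of the preGM arrays, 3 without GMP 1 or GMP 3, and 4 without GMP 2. Ms4a3, a membrane protein of granulocyte-monocyte progenitors, was at 9.56, 9.98 and 9.49 in preGMs and at 12.21, 11.58 and 11.91 in GMPs, a 4.67-fold rise (adjusted p = 0.00439). Cd63, a tetraspanin of granule membranes, rose 1.88-fold (10.84 to 11.28 against 11.89 to 12.02, adjusted p = 0.00269). Gstm1, a glutathione transferase, rose 2.59-fold (lost without any one of the 6 arrays), Nkg7 2.17-fold (lost without any preGM array) and Cst7, cystatin F, by 0.68 (lost without any array but GMP 2). With array medians subtracted 3 of the 19 rose.

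The serine proteases of these granules were not called in the fit of 5 groups. Elane, neutrophil elastase, was at 8.57, 8.98 and 8.19 in preGMs and at 11.72, 11.25 and 10.90 in GMPs. The groups did not overlap, but the difference of 2.71 ± 0.86 missed the threshold (adjusted p = 0.0591). A fit of the 6 arrays alone, whose spread leaves out the mutant groups, gave an adjusted p of 0.00328. That fit called 746 of all genes, against 2036 in the fit of 5 groups. Prtn3, proteinase 3 (0.95 ± 0.49), and Prss57 (1.92 ± 0.63) likewise passed in the 6 arrays alone, with adjusted p = 0.199 and 0.0643 in the fit of 5 groups and 0.0372 and 0.0116 in the 6 arrays alone. Ctsg, cathepsin G, differed by 0.66 ± 0.40 (adjusted p = 0.262). Mpo, myeloperoxidase, was among the highest values on every array, 12.80 to 12.98 in preGMs and 13.08 to 13.12 in GMPs (0.18 ± 0.13, adjusted p = 0.361). These 5 genes were singled out after their values were seen. GMP 1 was the highest array for the list as a whole, at 0.76 above its genes' means against 0.13 and 0.21 in GMP 2 and GMP 3.

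The 250 bases before the annotated start (RefSeq, GRCm38.p6) are shown for Ms4a3, the primary granule gene with the largest rise, for Cd63, and for the gate gene Fcgr3, the last chosen after its values were seen. They were searched on both strands for the letters TTGCNNAA of C/EBP factors, GAGGAAG of PU.1, AGATAAG of GATA factors and TTCCCGCC of E2F factors, and matches are in capitals, with the strand of the gene read 5′ to 3′.
Ms4a3, chr19:11640852-11641101, minus strand: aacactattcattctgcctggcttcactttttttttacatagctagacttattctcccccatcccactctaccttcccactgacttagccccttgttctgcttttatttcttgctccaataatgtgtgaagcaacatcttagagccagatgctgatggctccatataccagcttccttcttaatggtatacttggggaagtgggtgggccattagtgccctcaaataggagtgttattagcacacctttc
Cd63, chr10:128909095-128909344, plus strand: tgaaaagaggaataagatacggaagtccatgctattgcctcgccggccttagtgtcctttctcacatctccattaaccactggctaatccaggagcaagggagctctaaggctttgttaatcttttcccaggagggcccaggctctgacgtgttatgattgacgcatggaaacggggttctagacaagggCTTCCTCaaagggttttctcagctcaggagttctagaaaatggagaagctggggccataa
Fcgr3, chr1:171059404-171059653, minus strand: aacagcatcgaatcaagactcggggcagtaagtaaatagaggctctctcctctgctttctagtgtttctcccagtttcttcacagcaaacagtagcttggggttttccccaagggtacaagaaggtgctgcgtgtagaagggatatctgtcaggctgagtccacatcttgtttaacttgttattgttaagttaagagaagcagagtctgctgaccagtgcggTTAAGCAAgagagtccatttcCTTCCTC

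The Fcgr3 stretch held a C/EBP match, TTAAGCAA, with its first base at -28 from the start, and a PU.1 match, CTTCCTC, at -7. The Cd63 stretch held a PU.1 match at -60, and the Ms4a3 stretch held none of the 4 motifs. Those of Gstm1 and Nkg7, which rose more than Cd63 and are not shown, held none either. The stretches of Dntt, Flt3 and Sgms2 were also searched, chosen after their values were seen, and held none. Cd63 and Fcgr3 were thus the only genes searched singly that had a match. A match is a description of the letters and not a bound site. Of 15613 tested genes with a promoter entry, 8.65% held the C/EBP letters, against 10.8% of the genes that rose and 6.98% of those that fell. For PU.1 the shares were 10.3%, 11.6% and 12.9%, for GATA 2.41%, 2.23% and 0.833%, and for E2F 2.64%, 2.39% and 3.23%.

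Genes of later neutrophil granules were mixed. Of 24 secondary granule and neutrophil genes 4 rose and 1 fell (median 0.51; 2 to 5 rose with 1 array left out). Fcnb led the rises, and Abca13, a lipid transporter, rose from 4.72, 5.25 and 4.87 to 6.70, 6.86 and 7.18 (1.97 ± 0.32, adjusted p = 0.00267). Itgam, which encodes CD11b, rose 1.55-fold (lost without any array but GMP 1). Mmp8, neutrophil collagenase, was at 6.39, 7.51 and 6.09 in preGMs and 4.85 to 5.51 in GMPs (-1.43 ± 0.38, adjusted p = 0.0322; lost without preGM 1, preGM 2, GMP 2 or GMP 3). S100a8, the abundant calcium-binding protein of neutrophils, was at 8.31, 10.13 and 8.58 in preGMs and 11.41 to 11.95 in GMPs (2.65 ± 1.08, adjusted p = 0.117; 0.0216 in the 6 arrays alone). PreGM 2 was the highest preGM array for S100a8, Prg2, Mmp8, Ltf (5.98, 7.38 and 5.95), Camp (6.82, 8.41 and 7.10) and Ngp (8.54, 10.36 and 8.30), products of more mature granulocytes. The part of this array in the differences of these genes was not tested. Among 7 genes of the NADPH oxidase, which makes the respiratory burst, Ncf4 rose 2.14-fold (lost without any array but GMP 1), and Cybb differed by 1.81 ± 0.87 (adjusted p = 0.17). Among 13 S100 genes only S100a10 was called, a fall of 1.03 ± 0.26 (lost without any array but GMP 1).

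Genes of mast cells, basophils and eosinophils, 23 measured, had 7 rises and no falls (median 0.30). The number was 3 without preGM 1, 5 without preGM 3 and 6 to 8 without any other array. They were the eosinophil granule genes Prg2, Prg3, Epx and Ear6, the basophil proteases Prss34 and Mcpt8, and Hdc, which makes histamine. Prg3 rose 5.76-fold, from 6.25, 6.45 and 6.17 to 9.29, 8.31 and 8.86 (adjusted p = 0.0129; lost without preGM 1). Hdc rose 3.43-fold, from 8.23, 7.80 and 7.90 to 9.92, 9.89 and 9.46 (adjusted p = 0.00991). Prss34 rose from 5.62 to 5.77 across preGMs to 7.03, 7.45 and 8.10 (1.85 ± 0.21, adjusted p = 0.00022), and Mcpt8 1.90-fold (adjusted p = 0.0115; lost without preGM 1). Epx, eosinophil peroxidase, rose by 1.11 and Ear6, an eosinophil-associated ribonuclease, by 1.58 (lost without preGM 1, preGM 3 or GMP 2). Cpa3, the mast cell carboxypeptidase, was at 9.17 to 9.40 in preGMs and at 9.13, 7.35 and 8.85 in GMPs (-0.84 ± 0.34, adjusted p = 0.118).

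Of 24 monocyte and dendritic cell genes 1 rose and 3 fell (median -0.10). Tcf4, a factor of plasmacytoid dendritic cells, fell 2.77-fold (9.55 to 9.78 against 8.49, 7.61 and 8.42, adjusted p = 0.00277). Ctss, cathepsin S, fell 3.02-fold with a wide GMP spread (9.43, 7.23 and 8.72; lost without any preGM array or GMP 2). Cd14 rose by 0.69 ± 0.20 (lost without any preGM array or GMP 1). Csf1r, the M-CSF receptor, was at 8.17 to 8.61 and 7.73 to 8.53 (adjusted p = 0.638), and Ccr2 differed by -0.69 ± 0.23 (adjusted p = 0.0689). Of 17 macrophage genes Vcam1 rose by 1.90 ± 0.39 (5.50 to 5.97 against 8.55, 6.98 and 7.42), and Apoe and Cd163 fell by 1.33 ± 0.24 and 1.11 ± 0.13. C1qa, which marks mature macrophages, was under the array medians on all 6 arrays (5.74 to 6.09).

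Antigen presentation genes fell or were not called. Of 17 MHC class II and related genes 6 fell and none rose (median -0.50; 2 without preGM 1, preGM 2 or GMP 2, 3 without preGM 3 or GMP 3, 8 without GMP 1). H2-DMa, a subunit of the peptide loader, fell 3.43-fold (10.33, 10.62 and 10.06 against 9.27, 8.01 and 8.40, adjusted p = 0.00593) and H2-Ob, a subunit of its inhibitor, 2.65-fold (adjusted p = 0.00635). H2-Oa fell 1.69-fold (lost without preGM 1, preGM 2, GMP 2 or GMP 3). H2-Aa, a class II chain, was at 8.39 to 8.86 in preGMs and 6.63 to 7.34 in GMPs, without overlap, and was not called (-1.67 ± 0.55, adjusted p = 0.0674; 0.00801 in the 6 arrays alone).

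Of 33 pattern recognition genes 6 rose and 3 fell (median 0.09). Besides the lectins above, Mefv, which encodes pyrin, rose 4.0-fold (6.33, 6.76 and 6.39 against 7.94, 8.94 and 8.59, adjusted p = 0.0115; lost without preGM 1 or GMP 2), and Tlr1 rose by 0.88 (lost without any preGM array or GMP 3). Ly96, the MD-2 partner of Tlr4, fell by 1.74 ± 0.36 (lost without preGM 1) and Tlr7 by 0.93 ± 0.13 from already low levels. The number that rose was 1 without preGM 1, 2 without preGM 2 or preGM 3, and 4 or 5 without any GMP array; 7 fell without GMP 1 and 1 without preGM 1.

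Of 35 cytokine receptor genes 2 rose and 8 fell (median -0.29). Csf2ra, the alpha chain of the GM-CSF receptor, rose 2.20-fold (9.12, 9.06 and 8.36 against 9.52, 10.38 and 10.06, adjusted p = 0.0189; lost without preGM 3, GMP 2 or GMP 3). Ifngr1 rose 1.72-fold (lost without any array but GMP 3). Csf3r, the G-CSF receptor, differed by 0.85 ± 0.33 (adjusted p = 0.105). With Flt3, Il7r and Kit, the receptor chains Il18r1 (-1.95 ± 0.26), Il10rb (-1.42 ± 0.35; lost without any preGM array or GMP 2), Il12rb2 (-1.37), Tgfbr1 (-0.86) and Lifr (-0.57; lost without any preGM array or GMP 2) fell. Without preGM 1 or preGM 3 the falls were 5. Among 25 chemokine and chemoattractant receptors Ltb4r1, the leukotriene B4 receptor, rose 1.86-fold (lost without preGM 1 or preGM 3) and Ccr10 by 0.50 (lost without any preGM array or GMP 2).

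Of 31 integrin and selectin system genes 5 rose and 4 fell (median -0.30); 1 or 2 rose without any array but GMP 1, and without GMP 1 the falls were 8. The beta 2 integrin genes Itgb2, Itgam and Itgb2l rose, Itgb2 1.92-fold (6.61 to 6.69 against 7.34 to 7.74, adjusted p = 0.0169; lost without preGM 1, preGM 3 or GMP 2) and Itgb2l by 0.53 (lost without preGM 1, preGM 2, GMP 2 or GMP 3). Itgb1, the beta 1 chain, fell 1.69-fold (10.50 to 10.52 against 9.43 to 10.23, adjusted p = 0.015; lost without preGM 1, GMP 2 or GMP 3). Pecam1 and Icam4 fell 1.83-fold and 2.18-fold. Among 17 stroma and endothelium genes 3 fell and 1 rose; Emcn, endomucin, which is also made by early progenitors, fell by 2.0 ± 0.21 from 6.00, 6.84 and 6.31. Cdh5, which defines endothelium, was at 5.16 to 5.38 on all 6 arrays.

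Of 22 erythroid genes 4 fell and none rose (median -0.26; 3 without any 1 of the arrays). The carbonic anhydrases led. Car1 was at 10.12, 10.70 and 10.11 in preGMs and at 8.40, 6.75 and 7.44 in GMPs, a 6.87-fold fall (adjusted p = 0.00432), and Car2 fell 4.08-fold (adjusted p = 0.00531). Gata1, the erythroid and megakaryocytic transcription factor, fell 1.59-fold (6.70 to 7.08 against 6.10 to 6.35; lost without any one of the 6 arrays). Klf1 and Epor were not called (-0.26 ± 0.18 and 0.03 ± 0.13). Of 15 megakaryocyte genes none was called; 4 of them did not overlap between the groups, under the 34.0% of all genes, and leaving out GMP 1 gave 1 higher and 2 lower. Pf4 was at 5.35 to 6.49 in preGMs and 5.13 to 5.59 in GMPs.

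Among cell cycle genes the calls were falls. Of 43 E2F and S phase genes 4 fell (9.3%, beside 6.02% of all genes; median -0.18); 13 fell without GMP 1 and none or 1 without any other array. Of 33 G2 and M phase genes none was called (median -0.15), and 4 fell without GMP 1, near the 13.5% of all genes that fell in that fit. Pola1, Rrm1, Mcm4 and Mcm6, of DNA replication, fell by 0.50 to 0.93, and each lost its call without preGM 2, preGM 3 or GMP 2, with Rrm1, Mcm4 and Mcm6 also without preGM 1 or GMP 3. Mki67, a general marker of cycling cells, was at 10.41 to 11.04 and 10.36 to 10.65, overlapping (adjusted p = 0.423). Of 24 cyclin-dependent kinase regulator genes 5 fell and none rose (20.8% fell; median -0.28; 9 falls without GMP 1, 2 or 3 without any other array). Ccnd1, cyclin D1, fell 2.80-fold (8.40, 8.34 and 8.64 against 7.13, 6.88 and 6.92, adjusted p = 0.000152), and Cdkn2c, an inhibitor of Cdk4 and Cdk6, fell 1.74-fold. Cdk4 fell 1.49-fold (lost without any array but GMP 1).

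Counts in several lists of biosynthetic and housekeeping genes changed most without GMP 1. Of 37 oxidative phosphorylation genes 2 fell (Cox5a by 0.78 and Atp5pb by 0.64), of 74 mitochondrial ribosome genes 2 (Mrpl3 by 0.94 and Mrpl47 by 0.83), and of 61 ribosomal protein genes 5 fell and 1 rose (11 fell with array medians subtracted and none after quantile normalization). The calls of Cox5a, Atp5pb, Mrpl3 and Mrpl47 were lost without any array but GMP 1. Without GMP 1, when 13.5% of all genes fell, the falls in the 3 lists were 22, 29 and 21, and without any other array at most 1. GMP 1 was on the preGM side for the first list, at 0.34 relative to its genes' means against 0.07 to 0.19 in preGMs and -0.45 and -0.30 in GMP 2 and GMP 3. The same held for 21 cholesterol synthesis genes, with 4 falls and 1 rise, 12 falls without GMP 1 and none or 1 without any other array. Idi1, of the isoprenoid pathway, was at 7.77 to 8.09 in preGMs and at 7.70, 5.01 and 6.40 in GMPs (lost without any array but GMP 1). Small nucleolar RNAs went the other way, with no call among 51, 25 rises without GMP 1, and a mean of -0.69 in GMP 1 against 0.57 and 0.96 in GMP 2 and GMP 3. Without GMP 1 the falls also numbered 13 of 35 lysosomal genes, 11 of 29 aminoacyl-tRNA synthetase and Atf4 target genes, 8 of 36 Myc and ribosome biogenesis genes, 7 of 25 glycolysis and hypoxia genes and 5 of 11 housekeeping genes, while 6 of 48 endoplasmic reticulum genes were near the 13.5% of all genes. The part of RNA quality or amplification in these values was not tested.

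**Figure D4:**
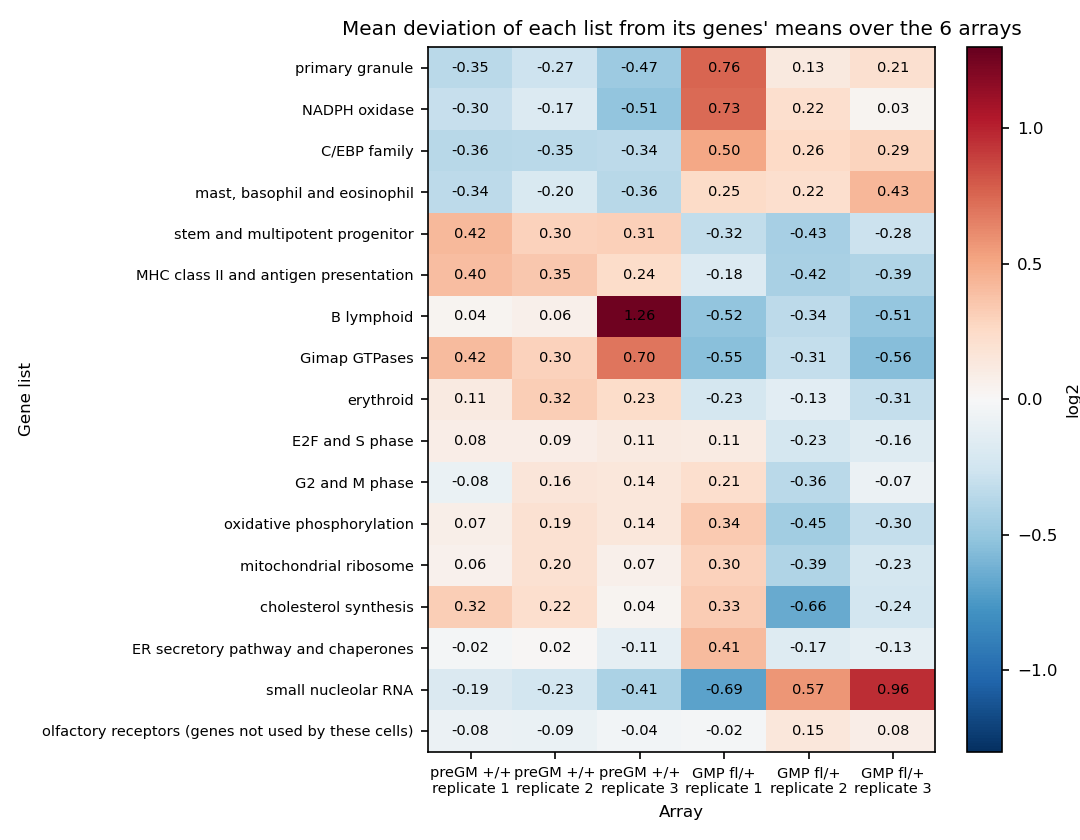
Mean log2 deviation of each list's genes from their own means over the 6 arrays, by array (columns) and list (rows); red is higher and blue lower. The B lymphoid list reaches 1.26 in preGM +/+ replicate 3, and the small nucleolar RNA list is -0.69 in GMP fl/+ replicate 1 against 0.57 and 0.96 in replicates 2 and 3.

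Of 26 interferon response genes 7 fell and none rose (median -0.39; 3 without preGM 1 or GMP 2, 4 without preGM 3, 5 to 9 without any other array). Rtp4 fell 3.67-fold (8.32, 8.19 and 8.55 against 6.19, 6.15 and 7.08, adjusted p = 0.011), Xaf1 2.30-fold and Irgm1 2.23-fold. Of 19 p53 target genes 2 fell and 1 rose; Trp53inp1 fell 3.59-fold (8.12 to 8.66 against 6.16 to 7.02, adjusted p = 0.000458) and Sesn1 2.75-fold. Of 21 Bcl2 family and apoptosis regulator genes 5 fell and 1 rose. Bcl2, which blocks cell death, fell 1.92-fold (10.71 to 10.90 against 9.58 to 10.23, adjusted p = 0.00279), and Bcl2l11, its pro-apoptotic antagonist Bim, fell by 0.79 ± 0.14.

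Stress, secretory and metabolic genes showed few calls. Of 48 endoplasmic reticulum genes Xbp1, a factor of secretory cells, rose 1.56-fold (lost without any preGM array or GMP 2) and Spcs1 fell 1.61-fold (lost without any array but GMP 1). Of 29 aminoacyl-tRNA synthetase genes and targets of the transcription factor Atf4, Slc7a11, Atf4 and Chac1 rose by 0.99, 0.62 and 0.51 and Phgdh and Iars fell by 0.78 and 0.77. Each lost its call without preGM 1 or preGM 3, all but Slc7a11 also without preGM 2 or GMP 2, and Chac1, Phgdh and Iars also without GMP 3. None of 25 immediate early and heat shock genes was called; Hspa1a was at 9.11, 6.92 and 9.36 in preGMs and 9.37, 11.06 and 11.17 in GMPs (adjusted p = 0.0955). Of 36 Myc and ribosome biogenesis genes Dkc1 and Nop58 fell by 0.57 and 0.39, and both lost their calls without preGM 1, preGM 2, GMP 2 or GMP 3, Dkc1 also without preGM 3. Vegfa rose 2.15-fold (lost without preGM 1, preGM 3, GMP 2 or GMP 3) and Slc2a3, a glucose transporter, fell 1.90-fold (lost without preGM 1) among 25 glycolysis and hypoxia genes. Neu1, lysosomal sialidase, rose 2.58-fold (6.38 to 6.60 against 7.70 to 7.93, adjusted p = 0.000501) among 35 lysosomal genes, of which 2 rose and 2 fell. Of 30 histone genes 3 rose and 2 fell, among them H3c4 by 1.62 ± 0.31 and H2bc4 by -1.45 ± 0.22; this list was drawn up by current symbols after the older symbols had matched nothing.

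The same step was measured in mice labelled fl/p30, which carry a floxed Cebpa allele and one that makes only the short p30 form of C/EBPα. It compared 3 preGM with 3 GMP arrays, none shared with the control step, and here the titles give the same 3 animal numbers to both stages. There 128 genes were called (0.642%), 71 higher and 57 lower, in a fit that did not pair the arrays by animal number. Of the genes that rose in controls, 682 of 836 (81.6%) had a positive difference in fl/p30 mice, where 55.6% of all genes did, and of those that fell 968 of 1200 (80.7%) had a negative one. The calls shared in direction were 58, which is 45.3% of the fl/p30 calls and 2.85% of the control calls. The median size of the control calls was 0.69 in controls and 0.19 in the fl/p30 step, and controls were where those genes had been chosen.

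All 30 of the most changed genes had the same sign in the fl/p30 step, and 7 of them were called there. Dntt fell by 4.30 ± 0.27 in the fl/p30 step, Flt3 by 2.69 ± 0.28, Gcnt2 by 2.17 ± 0.20 and Myct1 by 2.44 ± 0.32, and Fcgr3 rose by 2.35 ± 0.20. Ms4a3, outside those 30, rose by 2.50 ± 0.39. Angpt1 differed by -0.12 ± 0.26 there and Ctla2a by -0.72 ± 0.33, against falls of 2.37 and 3.20 in controls, and Prom1 by 0.68 ± 0.45 against 2.87. The difference between the steps was not called for any of these genes.

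**Figure D5:**
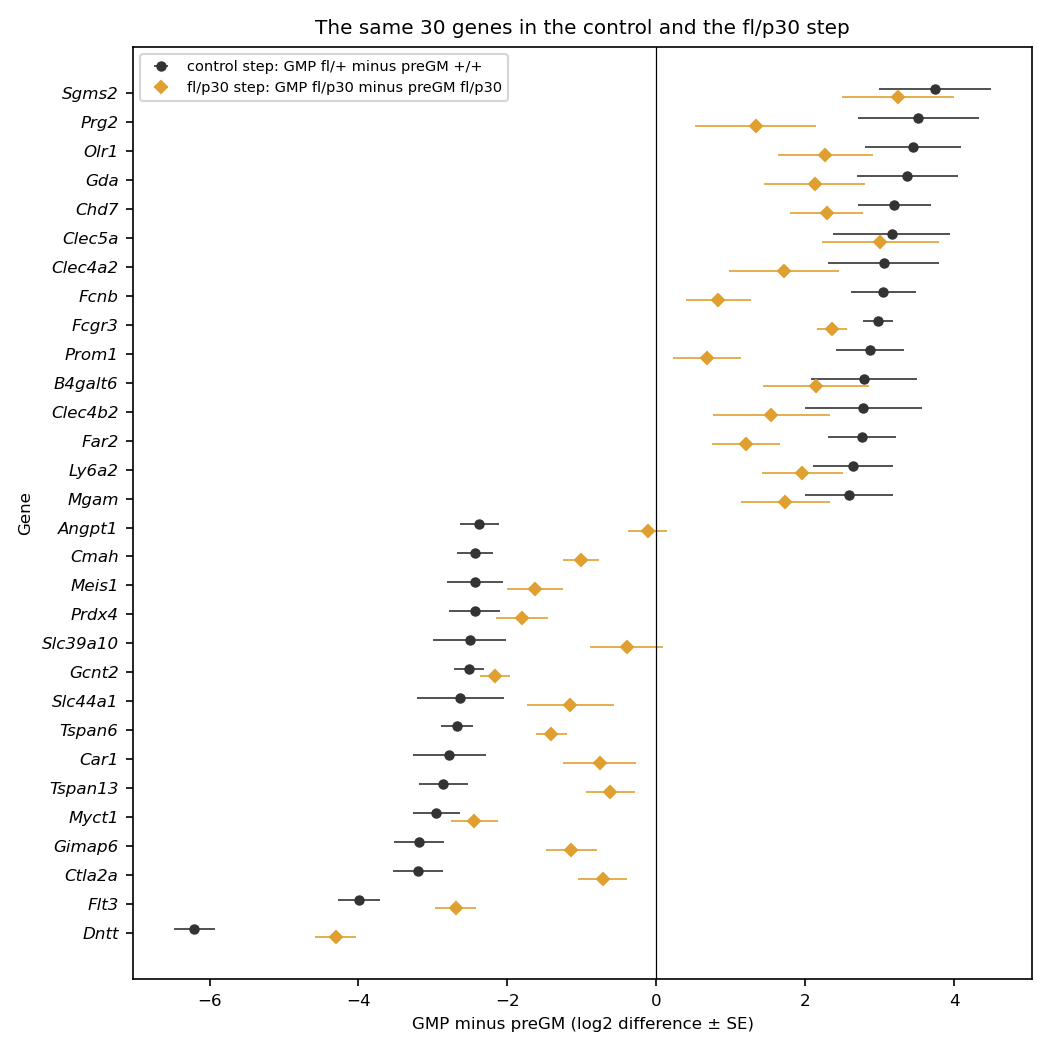
GMP minus preGM (log2 difference ± standard error, horizontal axis) of the 30 most changed genes in the control step (dark circles) and in the fl/p30 step (yellow diamonds). All 30 diamonds lie on the same side of 0 as their circle; Angpt1 is at -0.12 in the fl/p30 step and Sgms2 at 3.24.

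Only P2rx7, an ATP-gated ion channel, was called for the difference of the steps (0.00502% of genes). It was at 7.21, 7.32 and 7.04 in control preGMs and 6.63, 6.85 and 6.83 in control GMPs (-0.41 ± 0.15, adjusted p = 0.082), and it rose by 1.24 in the fl/p30 step (adjusted p = 0.00141). The steps differed by 1.65 ± 0.21 (adjusted p = 0.0269). With the replicate block, which in fl/p30 mice is the animal, the adjusted p was 0.0662, and it was 0.1205 after quantile normalization. The call was also lost without any control preGM array (0.147, 0.0782 and 0.0571), GMP fl/+ replicate 3 (0.0704), preGM fl/p30 replicate 1 or 3 (0.0757 and 0.0502) or GMP fl/p30 replicate 2 (0.0597). Of all genes, 2616 had an unadjusted p under 0.05 for this difference, and 1482 were called without GMP 1 and 117 without GMP fl/p30 replicate 3, against 0 to 4 without any other.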

How the data were processed

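Expression was measured on Affymetrix mouse gene arrays. The deposited values are on a log2 scale, made with RMA and the affy package per the submitters' processing notes, which list no versions. Of 34760 probe sets, 21640 had 1 gene symbol, 1321 several and 11799 none in the platform annotation; per gene the probe set with the highest mean over all 15 arrays was kept, leaving 19937 genes.

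Group means were fitted with limma 3.58.1 (R 4.3.3) over all 15 arrays (10 residual degrees of freedom), with Benjamini-Hochberg adjustment over all genes. On data simulated for the control step over 19937 genes the fit recovered 83 of 100 genes changed by 1 and 99 of 100 changed by 2 (log2). The simulated noise was independent between genes, with the same spread in every group. The real arrays had a root mean square standard deviation of 0.319 in GMP fl/+ and 0.165 in preGM +/+. Recovery in the real data can therefore differ. Named genes were the 15 largest rises and falls among called genes without overlap (5 for the difference of the steps), up to 4 called members per direction of each list (2 where none was called) and every gate and C/EBP gene; any other was named after its values were seen. Comparison, members and lists were chosen with earlier results of these data known. Of 2215 list entries 2113 were measured.

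The numbers in the titles are read as animals; where they are not, p-values measure only the spread between these samples. The control replicate numbers mark different animals, and same-numbered control arrays did not deviate together (correlations -0.0453, -0.0711 and 0.0388). Each fl/p30 pair shares an animal number (0.334, 0.32 and 0.116). The number of arrays limits the precision. Alternatives were fewer arrays, array weights, an intensity trend, filters, other probe set and scaling rules, a replicate block and leaving out each array.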

Additional observations from a re-analysis of the deposited data

Results flagged for a closer look

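P2rx7 was picked out because its difference between preGMs and GMPs was not the same in the control and the fl/p30 mice: the fl/p30 step exceeded the control step by 1.65 (log2, limma's interaction, adjusted p = 0.0269). In 3 against 3 arrays per step it was lower in control GMPs and higher in fl/p30 GMPs.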

How the results depend on the processing

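The control step had 2036 calls, 836 higher and 1200 lower. A fit of the 6 arrays alone gave 746 (243 and 503), array weights 4660 (2183 and 2477), and a difference of at least 1 gave 450 (108 and 342). The higher calls also moved to 424 among genes above the median level, to 458 with array medians subtracted and, in a setting chosen after seeing the data, to 511 where the GMP mean was above every array median. Leaving out 1 array gave 636 to 4686 calls, 194 to 2001 of them higher and 442 to 2685 lower. With the replicate block there were 1649 calls in the control step and 109 in the fl/p30 step. The block gave each replicate number the same shift in all groups, though only the fl/p30 numbers pair animals. A fit of the fl/p30 pairs on their own was not made. The 128 calls of the fl/p30 step became 29 in its own arrays alone, 1948 with weights, 76 at a difference of at least 1, and 26 to 120 with 1 array left out. The 1 call for the difference of the steps became 4 with only the arrays compared, 1991 with weights, 2 with an intensity trend, 0 after quantile normalization and 0 with the replicate block, and 0 to 1482 with 1 array left out. Of 157 genes named by rule and called in the control step, 72 stood in all 6 leave-outs. Of the 30 with the largest changes 23 did; 29 were called in the 6 arrays alone. None of those 157 genes changed sign in any of these settings. The causes were not tested.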

Other observations

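Some called genes with the same direction lay next to each other among the tested genes in the order of the RefSeq annotation. On chromosome 2 the eosinophil granule genes Prg2 and Prg3 rose by 3.52 and 2.53, and their neighbour P2rx3, an ATP-gated channel gene, by 0.99. On chromosome 19 Dntt and its neighbours Blnk and Zfp518a fell, with differences of -6.20, -2.10 and -1.16. On chromosome 16 Parp14, Dtx3l and Parp9, genes of an interferon-induced ADP-ribosylation group, fell, with differences of -1.18, -0.68 and -0.82. On chromosome 3 Med12l, Gpr171 and P2ry14 fell, with differences of -0.90, -1.20 and -1.93; the last 2 are receptor genes that lie within the Med12l region. These runs were chosen after their values were seen, and how often such runs arise among all genes was not tested.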
